A study of Rattus norvegicus with 8 samples.

Results

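The NR4A genes Nr4a1, Nr4a2 and Nr4a3 were followed in 8 isolated rat hearts, each read on its own Affymetrix array. Every probe set (a group of short probes read as 1 value) whose only annotated gene was one of these 3 was taken, which gave 6 of 31042 probe sets: 1 for Nr4a1, 2 for Nr4a2 and 3 for Nr4a3. The 3 genes are among 14217 genes named on the array. All hearts came from male Wistar rats and were perfused for 2 h by the Langendorff method, in which an excised heart is fed through the aorta with fluid that is not returned to it. In 4 control hearts the fluid held no drug, and in 4 hearts it held 2 µM doxorubicin, an anthracycline used against cancer that intercalates in DNA and poisons topoisomerase II. An isolated heart keeps the cells it had in the animal, but receives no blood, nerve input or circulating hormone during perfusion. Levels below are log2 of the deposited intensity, and a difference is doxorubicin minus control on that scale. No array was from a heart before perfusion. Fell and rose therefore mean lower or higher than in control hearts after 2 h, not a change over time. A change was called where the limma p, adjusted over every probe set, was under 0.05.

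NR4A receptors are transcription factors of the nuclear receptor superfamily. They are called orphan receptors because no ligand of the classical hormone kind controls them, and their activity follows largely from how much of each protein is made. Their genes are immediate early genes, which many tissues, heart and skeletal muscle included, switch on quickly after cAMP and calcium signals, stretch, growth factors or inflammatory cytokines, through factors such as CREB, MEF2 and SRF. The proteins bind DNA as monomers or dimers, and Nr4a1 (Nur77) and Nr4a2 (Nurr1) can also pair with retinoid X receptors, while Nr4a3 (NOR-1) does not do so readily.

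Because CREB acts through the cAMP response element (CRE), the bases before the annotated starts of these genes are shown with the CRE-related letters in capitals. RefSeq sequence of the GRCr8 assembly was held for 2 of the 3 genes. The Nr4a1 window is chr7:134259888-134260137 on the plus strand, and the Nr4a2 window is chr3:62104888-62105137 on the minus strand. Both are the 250 bases before 1 annotated start, written 5′ to 3′ along the gene, and both lie inside the RefSeq span of their gene, with the start 12985 bases from its 5′ end for Nr4a1 and 11039 for Nr4a2. Capitals mark TGCGTCA, a CRE-like heptamer, and TGACG, the shorter CRE core, which the heptamer contains on its opposite strand.
Nr4a1: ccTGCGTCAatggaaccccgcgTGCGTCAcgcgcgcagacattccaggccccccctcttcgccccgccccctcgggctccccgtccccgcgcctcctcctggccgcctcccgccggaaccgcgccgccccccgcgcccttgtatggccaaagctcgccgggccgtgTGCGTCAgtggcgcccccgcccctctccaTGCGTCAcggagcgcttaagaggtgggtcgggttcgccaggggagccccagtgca
Nr4a2: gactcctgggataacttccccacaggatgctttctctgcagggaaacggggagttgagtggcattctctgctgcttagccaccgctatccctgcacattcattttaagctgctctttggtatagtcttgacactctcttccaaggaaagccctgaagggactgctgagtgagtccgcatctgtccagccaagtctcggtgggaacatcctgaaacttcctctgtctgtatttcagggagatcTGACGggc
The Nr4a1 window held TGCGTCA 4 times, all in the direction of the gene, beginning 248, 228, 84 and 55 bases before the start. Of 33469 RefSeq promoter windows of this length, 1.66% held the heptamer at least once on either strand, and the window of Nr4a1 was the only 1 with 3 or more. The Nr4a2 window held no TGCGTCA and 1 TGACG, which begins 8 bases before the start. The core occurred in 18.2% of all windows and 4 or more times in 0.173% of them. Neither window held the full palindrome TGACGTCA (1.59% of all windows), the AP-1 motif TGANTCA (6.34%), the NR4A monomer site AAAGGTCA (1.24%) or TATAAA (12.9%). GC content was 74.8% in the Nr4a1 window and 52.0% in the Nr4a2 window, against a median of 51.2% over all windows. The motifs were added after the data were seen, so the shares of windows given here are descriptions and no test. These matches describe letters in 1 window a gene, and the arrays did not measure binding there.

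**Figure D1:**
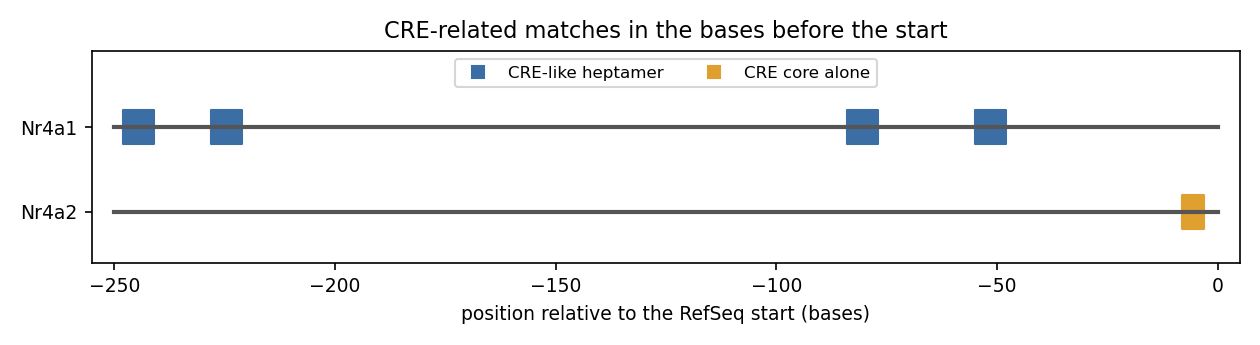
Position of CRE-related matches in the 250 bases before 1 RefSeq start of Nr4a1 and Nr4a2, with the start at 0 on the horizontal axis (bases). The 4 CRE-like heptamers of Nr4a1 lie as 2 pairs, and the Nr4a2 window holds 1 CRE core near its start.

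Nr4a3 was much lower in the doxorubicin hearts, while Nr4a1 and Nr4a2 did not pass the test. By its brightest probe set, 1369067_at, Nr4a3 fell 6.85-fold, with a 95% interval of 4.65 to 10.1. This was the 4th lowest difference among the 14217 genes. Nr4a1 stood at -0.38 and Nr4a2 at 0.28, so the 3 genes of the family did not share 1 response. Of the 6 probe sets, 2 were called, both of Nr4a3 and both lower, and 2.21% of all 31042 probe sets were called in either direction. Among genes, each read by its brightest probe set, 1 of 3 was called lower and none higher, against 2.17% called lower and 0.802% called higher of all genes.

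The 4 control hearts read 11.07, 10.29, 10.67 and 11.11 log2 for Nr4a3 on 1369067_at, from heart 1 to heart 4. The 4 doxorubicin hearts read 7.91, 8.14, 7.39 and 8.58 on the same probe set. The groups did not overlap, and the highest doxorubicin heart lay 1.71 log2 under the lowest control heart. On the linear scale these are intensities of 1254 to 2203 in control and 168 to 384 in doxorubicin hearts. The group means were 10.78 ± 0.38 and 8.01 ± 0.49 log2 (SD, n = 4 each), and Nr4a3 fell by 2.78 (SE 0.25, limma adjusted p = 0.000355). An exact permutation test of this single value over the 70 ways of drawing 4 of 8 hearts gave p = 0.0286, the smallest it can give. Groups that do not overlap were found for 8.55% of all probe sets.

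The other strong Nr4a3 probe set, 1393389_at, showed the same separation. It read 9.45, 8.70, 8.92 and 9.41 log2 in control hearts 1 to 4, and 6.48, 6.42, 5.90 and 7.21 log2 in doxorubicin hearts 1 to 4. In both probe sets control hearts 1 and 4 were the brighter pair of their group, doxorubicin heart 4 was the highest of its group and doxorubicin heart 3 the lowest. It fell by 2.62 (SE 0.26, adjusted p = 0.000664). The difference on 1369067_at minus that on 1393389_at was -0.16 (SE 0.08, exact permutation p = 0.143), with the same p after adjustment over the 4 pairs of probe sets of 1 gene.

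The third Nr4a3 probe set, 1369217_at, did not follow. It read 4.69, 4.50, 4.56 and 4.48 log2 in control hearts and 4.73, 4.92, 5.02 and 4.79 log2 in doxorubicin hearts. Its difference was 0.31 (SE 0.08, adjusted p = 0.0894), and its groups were 0.04 log2 apart without overlap. The responses of 1369067_at and 1393389_at, each minus that of 1369217_at, were -3.09 and -2.93 log2 (exact permutation p = 0.0286 and adjusted p = 0.0381 for each, over the 4 pairs). At a mean of 4.71 log2 it lay under the array's median probe set mean of 4.92 log2, and no detection calls came with the table. The place of each probe set in the transcript was not used here.

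Nr4a1 was bright in every heart. It read 10.61, 9.82, 9.93 and 10.29 log2 in control hearts 1 to 4 and 9.74, 9.63, 9.97 and 9.78 log2 in doxorubicin hearts 1 to 4. Control hearts 1 and 4, which were also the brighter pair for Nr4a3, lay above every doxorubicin heart, whereas control hearts 2 and 3 lay within the doxorubicin range. The means were 10.16 ± 0.36 and 9.78 ± 0.14 log2 (SD, n = 4 each). The difference was -0.38 (SE 0.16, adjusted p = 0.328, exact permutation p = 0.114), with a 95% interval of -0.74 to -0.03. Taken by itself, the limma p was 0.0382. Without control 1 the difference was -0.23, and without control 2 it was -0.50, neither called.

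Nr4a2 was read by a moderate and a dim probe set. On 1369007_at the control hearts read 6.35, 6.29, 6.12 and 6.21 log2 and the doxorubicin hearts 6.50, 6.46, 6.29 and 6.83 log2. Doxorubicin heart 3 lay within the control range and doxorubicin heart 4 stood above all others. The difference was 0.28 (SE 0.11, adjusted p = 0.291, exact permutation p = 0.0857), with a 95% interval of 0.03 to 0.52. Without doxorubicin 4 it was 0.17. The dim probe set, 1387410_at, ran from 4.42 to 4.73 log2 in control and from 4.52 to 4.60 log2 in doxorubicin hearts, with a difference of -0.05 (SE 0.07, adjusted p = 0.869). The 2 probe sets of Nr4a2 differed in response by 0.32 (exact permutation p = 0.0286, adjusted p = 0.0381 over the 4 pairs).

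**Figure D2:**
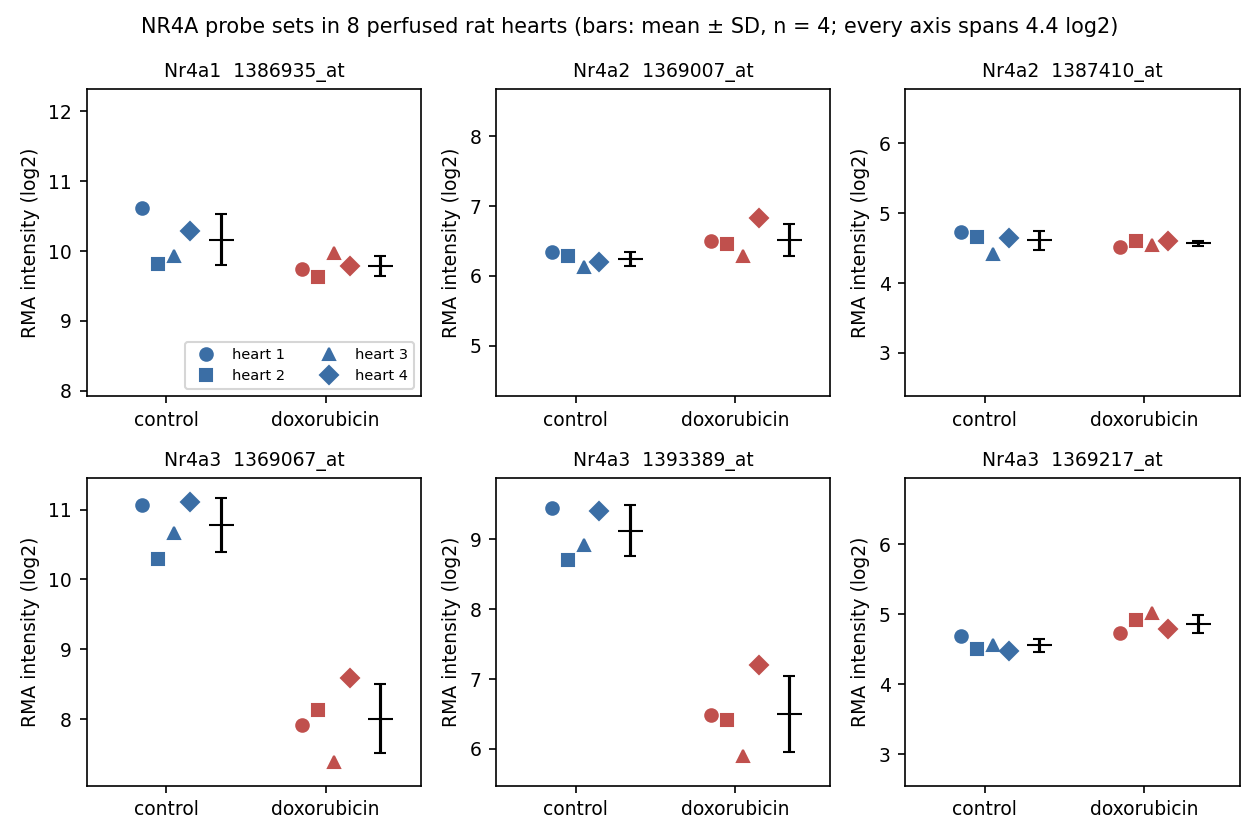
RMA intensity (log2) of the 6 NR4A probe sets in each heart, with control hearts in blue, doxorubicin hearts in red, 1 symbol shape per heart number and black bars for the mean ± SD (n = 4). On 1369067_at and 1393389_at of Nr4a3 all doxorubicin hearts lie well under all control hearts, while the other 4 panels show small shifts on axes of the same span.

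The responses of the genes were then compared with each other, heart by heart, as the log2 value of one gene minus that of another. The response of Nr4a3 was 2.39 log2 lower than that of Nr4a1 (SE 0.31) and 3.05 log2 lower than that of Nr4a2 (SE 0.24). Each had an exact permutation p of 0.0286 and an adjusted p of 0.0429 over the 3 pairs of genes. With the probe sets of each gene averaged, the difference of Nr4a3 was -1.70, and the gaps were 1.31 to Nr4a1 and 1.81 to Nr4a2, at the same adjusted p of 0.0429. The response of Nr4a1 minus that of Nr4a2 was -0.66 log2 (SE 0.22, exact permutation p = 0.0571, adjusted p = 0.0571), which did not pass. The spread between hearts of 1 group was wide for Nr4a3, with a pooled SD of 0.44 that exceeded those of 99.0% of all probe sets. For Nr4a1 it was 0.27, above 95.6% of them, and for 1369007_at of Nr4a2 it was 0.17, above 80.0%.

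Measures of the arrays and of the cell content of the hearts were read beside the NR4A values. Correlations over all probe sets were 0.988 to 0.996 within a group and 0.985 to 0.993 between groups, over features that are not independent replicates. Added hybridization controls, 18 probe sets for bacterial and phage transcripts, averaged 10.21 to 10.57 log2 on control and 9.97 to 10.13 log2 on doxorubicin arrays, without overlap. With that level as a covariate Nr4a3 fell by 2.86 on 1369067_at (adjusted p = 0.0471), and 1393389_at stood at -2.76 without passing (adjusted p = 0.0653). Because that level did not overlap between the groups, this fit cannot fully tell it apart from the drug. Its part in the Nr4a3 difference was not tested further. All hearts carried the cardiomyocyte markers at high level, with a summed intensity of 5 markers (Myh6, Tnnt2, Tnni3, Myl2 and Ryr2) of 68586 to 70779 in control and 69150 to 71786 in doxorubicin hearts and none of them called. In whole hearts, fewer cells of a type and less RNA per cell cannot be told apart.

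Atrial markers varied widely between hearts. The 4 markers Nppa, Myl7, Myl4 and Sln summed to 1214, 10284, 6143 and 1231 in control hearts 1 to 4, and to 5940, 3868, 1441 and 20375 in doxorubicin hearts 1 to 4, with none called. Control hearts 1 and 4, low in atrial markers, were the higher pair of their group for Nr4a3 and Nr4a1. Among doxorubicin hearts the ends of the order were the other way for Nr4a3, where heart 4 held the highest atrial sum and the highest Nr4a3 and heart 3 the lowest of both. These orders were not particular to atrial markers. Summed smooth muscle, fibroblast and macrophage markers also had control hearts 1 and 4 as the lower pair and doxorubicin heart 4 highest and heart 3 lowest. Smooth muscle sums were 754, 1492, 1724 and 814 in control and 849, 814, 806 and 1642 in doxorubicin hearts 1 to 4. The sums of the other cell types did not share both orders. The 5 fat cell markers summed to 92.6 to 226 in control hearts and 89.7 to 140 in doxorubicin hearts 1 to 3, but to 1213 in doxorubicin heart 4, with none called and the means of Lep and Plin1 under the 25th percentile of probe set means. Without that heart the Nr4a3 difference was -2.97 (adjusted p = 0.00044). The same heart held the highest Nr4a2 value on 1369007_at, at 6.83 log2. Without it the Nr4a2 difference went from 0.28 to 0.17, not called in either fit. Summed macrophage markers ran from 548 to 728 in control and 656 to 897 in doxorubicin hearts, with 0 of 6 called in limma and 0 at an unadjusted p under 0.05. Of 5 endothelial markers the receptor gene Tie1 rose by 0.34 (SE 0.06, adjusted p = 0.0148), and it lost the call without any one of doxorubicin 1, 2 and 3 and with the hybridization covariate (adjusted p = 0.456). The summed endothelial level was 2236 to 2457 in control and 2104 to 2511 in doxorubicin hearts. Fibroblast (0 of 5), smooth muscle (0 of 4), T cell (0 of 4) and neutrophil (0 of 2) markers held no called gene in limma and none at an unadjusted p under 0.05. The means of Cd3e, Cd3g and S100a8 lay under the 25th percentile of probe set means. Of all genes 2.17% were called lower and 0.802% higher, and 1005 and 1375 of 14217 were lower and higher at an unadjusted p under 0.05. At those shares most sets as small as the marker sets here and above would hold no call. The part of all these markers in the NR4A values was not tested.

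Among the nuclear receptor genes measured, Nr4a3 stood far below the rest. Of 46 other receptor genes listed, 39 were measured. By the brightest probe set of each, their differences ran from -0.41 to 0.43 with a median of -0.02. Of these 39, 1 was called lower, a share near the 2.17% of all genes. This was Nr3c2, the mineralocorticoid receptor, which fell by 0.37 (SE 0.07, adjusted p = 0.0197). That call was lost without any one of control 3, control 4 and doxorubicin 2, 3 and 4 (adjusted p up to 0.0646), and with the hybridization covariate (adjusted p = 0.627). The retinoic acid receptor gene Rarb stood at -0.41 (SE 0.09, adjusted p = 0.0579). The retinoid X receptor gene Rxrg, a possible partner of Nr4a1 and Nr4a2, stood at 0.32 (SE 0.08, adjusted p = 0.0855), and its dimmer probe set at -0.09. Nr1h3, the oxysterol receptor LXR alpha, stood at 0.43 (SE 0.12, adjusted p = 0.106). Among dimmer probe sets of the receptors, 1370540_at of Nr1d2 stood at 0.58 and 1370474_at of Thrb at -0.43, neither called. Several receptors were dim by their brightest probe set, such as Pgr (3.77 log2 in control hearts) and Nr1h4 (4.05). These lay under the median probe set mean of 4.92 log2, where a fall could hardly show.

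**Figure D3:**
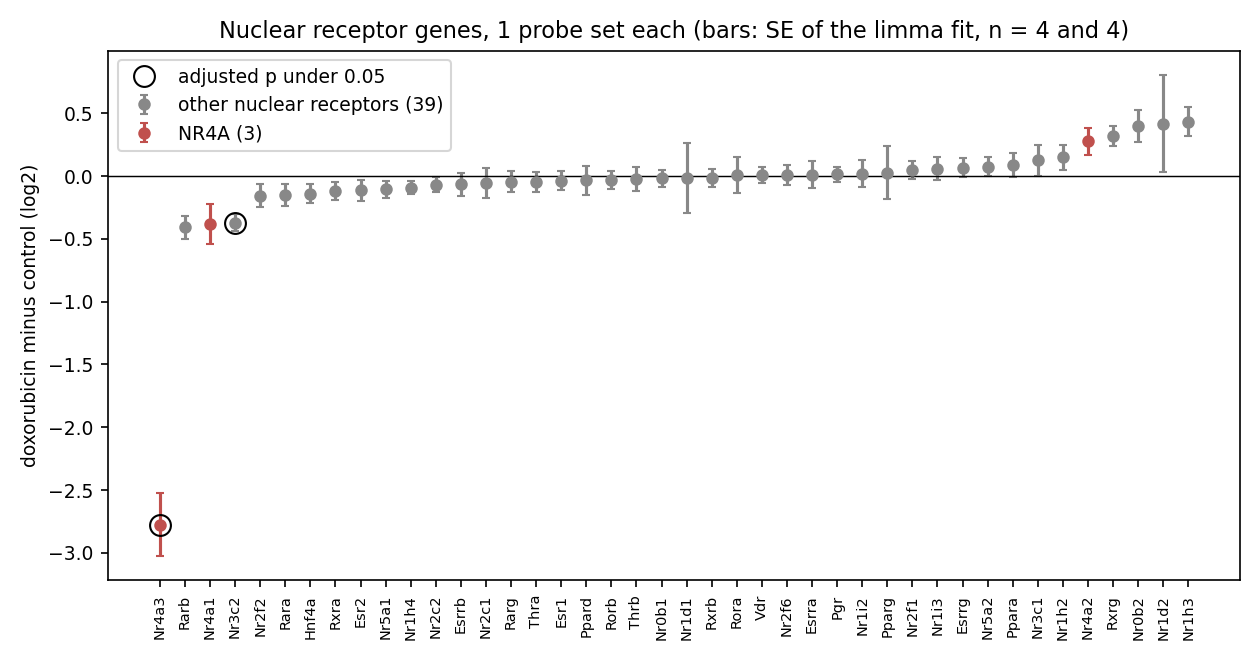
Difference between doxorubicin and control (log2, vertical axis) for 42 nuclear receptor genes in rank order, each by its brightest probe set, with the SE of the limma fit as bars and circles around genes with an adjusted p under 0.05. Nr4a3 lies at -2.78, while the 39 receptors outside the family lie between -0.41 and 0.43.

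Genes that act on NR4A transcription were listed next, both activators such as CREB, MEF2 and the calcineurin-dependent NFAT factors and restraining proteins such as class IIa histone deacetylases and regulatory subunits of protein kinase A. Of 32 listed, 27 were measured, and 2 fell and none rose in limma, beside 2.17% called lower and 0.802% called higher of all genes. At an unadjusted p under 0.05, 5 were lower and none higher of the 27, beside 1005 lower and 1375 higher of all 14217 genes. The median was -0.01, against 0.0063 over all genes. Hdac5, a class IIa histone deacetylase that holds MEF2 in check, fell by 0.91 (SE 0.12, adjusted p = 0.00347). Its 4 control hearts read 8.66, 8.12, 8.14 and 8.31 log2 and its 4 doxorubicin hearts 7.52, 7.42, 7.42 and 7.23 log2, without overlap. Its dimmer second probe set stood at -0.17. Nfatc1, a calcineurin-dependent factor, fell by 0.57 (SE 0.11, adjusted p = 0.0264), a call lost without any one of control 3, control 4, doxorubicin 1 and doxorubicin 3. With the hybridization covariate neither passed (adjusted p = 0.194 for Hdac5 and 0.456 for Nfatc1). Nfatc2 stood at -0.23 (adjusted p = 0.214). Creb1, which encodes CREB, stood at -0.44 (SE 0.16, adjusted p = 0.231), with its other probe sets at -0.03, 0.05 and -0.02.

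Partners and coregulators of NR4A proteins held no called gene. Of 23 listed, 20 were measured, and limma called 0, where 2.17% of all genes were called lower and 0.802% higher. At an unadjusted p under 0.05, 1 was lower and 2 higher, beside 1005 and 1375 of all 14217 genes, and the median was -0.0007. The acetyltransferase gene Crebbp, which encodes the CREB-binding coactivator, stood at -0.48 by its brightest probe set (SE 0.11, adjusted p = 0.0607), but its dimmer probe set 1380027_at rose by 0.60 (adjusted p = 0.0134) and the remaining 3 lay between -0.18 and 0.04. After Rxrg, the kinase gene Akt1 (0.17, adjusted p = 0.313) and the coactivator gene Ncoa3 (0.16, adjusted p = 0.397) had the smallest p. Without control 1, 1 gene of this list was called lower.

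Other early genes that cAMP induces were lower in the same hearts as Nr4a3. Of 25 listed, 24 were measured, 15 fell and 9 were not called, with no rise in limma. At an unadjusted p under 0.05, 17 were lower and none higher, beside 1005 lower and 1375 higher of all 14217 genes. The median was -0.83, and 15 of 24 compares with the 2.17% of all genes called lower. This list was written with earlier results of these data known, so its direction is not independent evidence. The insulin receptor adaptor gene Irs2 read 8.48, 8.59, 8.11 and 8.14 log2 in control hearts and 6.44, 6.26, 6.28 and 6.29 log2 in doxorubicin hearts, and fell by 2.01 (SE 0.11). The stress-induced factor gene Atf3 fell by 1.94 (SE 0.13). Jun, a subunit of AP-1, fell by 1.67 (SE 0.12), and its other probe sets fell as well (-2.38 and -1.58). The growth-arrest gene Gadd45b fell by 1.04 (SE 0.10). The adjusted p of these 4 ranged from 2.7e-05 to 0.000401. Among the 15 called genes, Sik1 lost its call in 5 and Nfil3 in 4 of the 8 fits without 1 heart. The other called genes kept theirs in all 8.

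Members of the cAMP list did not all move. The genes of this paragraph were chosen after their values or promoter windows were seen. The CREB-related gene Crem (-0.01, SE 0.14), the clock gene Per1 (-0.02, SE 0.07) and the coactivator gene Ppargc1a (0.01, SE 0.09) lay near 0, beside Nr4a1 (-0.38) and Nr4a2 (0.28). The other probe sets of Ppargc1a stood at -0.31 and -0.19 and those of Crem between -0.16 and 0.14, none of them called. Fos stood at -0.50 (adjusted p = 0.0728) and Ier2 at -0.63 (adjusted p = 0.0693), not called but both lower at an unadjusted limma p of 0.0020 and 0.0019. A TGACGTCA or TGCGTCA was found in the windows of 5 of the 18 genes of the list with sequence, Areg, Crem, Dusp1, Ier2 and Ppargc1a, against 3.60% of all 27457 genes with a window. Of these 5, 2 were called, Areg (-0.89) and Dusp1 (-1.54), while 12 of all 18 genes with sequence were called. A link between these motifs and the differences was not tested. The doxorubicin mean of Areg lay under the 25th percentile of probe set means. With the hybridization level as a covariate 4 genes of the list were called lower.

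Metabolic genes of muscle that respond to NR4A proteins showed 1 call. All 20 were measured, 1 fell and none rose in limma, beside the 2.17% and 0.802% of all genes called lower and higher. At an unadjusted p under 0.05, 3 were lower and 4 higher, beside 1005 and 1375 of all 14217 genes, and the median was 0.01. Pdk4, the kinase that switches off pyruvate dehydrogenase, read 11.46, 11.49, 11.37 and 10.95 log2 in control hearts and 10.57, 10.57, 10.54 and 10.46 log2 in doxorubicin hearts. It fell by 0.78 (SE 0.11, adjusted p = 0.00589), with a second probe set also at -0.78, and did not pass with the hybridization covariate (adjusted p = 0.383). The muscle phosphoglycerate mutase gene Pgam2 stood at 0.31 and the coactivator gene Ppargc1b at -0.44 (adjusted p = 0.178 for each), and the phosphorylase kinase subunit gene Phka1 at 0.24 (adjusted p = 0.198). Without control 1 or without control 2, 1 gene of this list was called higher.

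**Figure D4:**
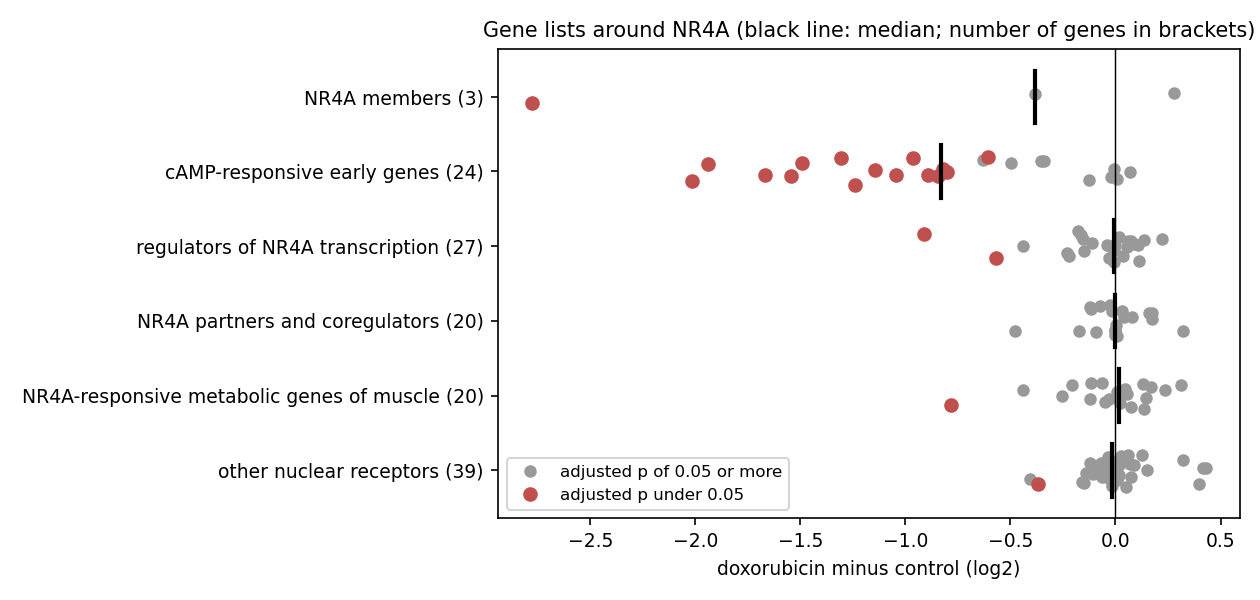
Difference between doxorubicin and control (log2, horizontal axis) for every measured gene of 6 lists, each point 1 gene by its brightest probe set, red where the adjusted p is under 0.05 and with a black line at the median. Of the cAMP-responsive early genes 15 of 24 are red and all 15 lie below 0, while the other lists gather around 0 apart from single genes.

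The genes with the pattern most like Nr4a3 were found in 2 ways, over the 8 hearts as they stand and after group means were removed. Since the groups of Nr4a3 lie far apart, likeness over the 8 hearts picks genes that differ between the groups, and their lower level follows from that choice. By Pearson correlation of log2 values, over 8 hearts in 2 separate groups and with no test, these were Sertad1, a regulator of cell cycle transcription (r = 0.991), the endothelial adhesion gene Sele (0.990), the early gene Ier3 (0.990), Bcr (0.989) and the chemokine gene Ccl3 (0.986). Their differences ran from -2.06 for Sele to -1.40 for Ier3, all smaller in size than that of Nr4a3. With group means removed, the 5 closest to Nr4a3 were Top2a, C130050O18Rikl, Shcbp1, Gpd1l1 and Agtr1a (r = 0.946 to 0.974), none of them called and with differences between -0.01 and 0.08. All but Gpd1l1 were dim, with group means of 3.70 to 4.70 log2 under the median probe set mean of 4.92 log2. These are the highest of 13980 genes over 8 hearts, so a high r follows in part from that choice. A link to Nr4a3 was not tested.

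Nr4a1 and Nr4a2 had other neighbours in pattern. Over the 8 hearts Nr4a1 was most like Elac1, Kcnk4, Tnfsf4, Marchf10 and Gpr45 (r = 0.964 to 0.978), with differences from -0.22 to -0.10, and after group means were removed most like Cda, Opn4, Plpbp, Atp6v1c2 and Stpg1 (r = 0.974 to 0.987). Nr4a2 was most like Ciao1, which encodes an iron-sulphur cluster assembly protein (r = 0.996), and then Gpd1, the cytosolic glycerol-3-phosphate dehydrogenase (0.958), Lss, lanosterol synthase (0.949), Pip4k2c (0.938) and the acetyl-CoA synthetase gene Acss2 (0.937). After group means were removed Ciao1 again came first (r = 0.998), followed by Cdkn1b, Zfp518b, Thy1 and Itgb4. None of these genes was called. They too are the highest of 13980 genes, and several were dim, such as Kcnk4 (4.14 log2 in control hearts) and Tnfsf4 (3.87).

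The genes beside the NR4A loci were read to see whether they moved with them. Order was taken from the RefSeq table of GRCr8, with the 3 nearest measured protein-coding genes on each side. Around Nr4a3 on chromosome 5, Tgfbr1, Alg2, Sec61b, Stx17, Erp44 and Invs had differences from -0.27 to 0.15, and none was called. Around Nr4a1 on chromosome 7, Scn8a, Acvrl1, Tamalin, Atg101, Krt7 and Krt86 lay between -0.22 and 0.13 without a call. Next to Nr4a2 on chromosome 3, Gpd2, the mitochondrial glycerol-3-phosphate dehydrogenase, rose by 0.47 (SE 0.10, adjusted p = 0.0356), a call lost without any one of 7 of the 8 hearts, all but control 2 (adjusted p up to 0.0998). With the hybridization covariate the difference was 0.19 (adjusted p = 0.885). Rprm, Galnt13, Kcnj3, Galnt5 and Ermn lay between -0.10 and 0.05. Of all genes 2.17% were called lower and 0.802% higher. At those shares most sets of neighbours this small would hold no call, so a lack of calls says little. Several neighbours were dim, such as Rprm (3.69 log2 in control hearts), Scn8a (4.08) and Stx17 (4.47), under the median probe set mean of 4.92 log2.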

How the data were processed

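The deposited table gives 1 intensity per probe set and array, computed by the authors with RMA (background correction, normalization between arrays and summary of probes), per the submitters' processing notes. Which RMA version and probe set definitions were used is not given in the sources. The values were linear (array medians 29.9 to 31.0), so log2 was taken with no offset. Since RMA equalizes the arrays, these values cannot show a shift common to most RNAs. The table held 31099 probe sets, and 57 AFFX controls were left out of testing. A single symbol was given for 20826, several for 436 and none for 9780, and symbols were updated through gene IDs in the RefSeq table of GRCr8 (20758 found). Where a gene had several probe sets, the one brightest on average over the 8 hearts stood for it.

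All 31042 probe sets were fitted with limma 3.58.1 (lmFit, eBayes; R 4.3.3) on 8 arrays with no covariate, two-sided, with Benjamini-Hochberg adjustment over all of them. Single values were tested with exact permutation, two-sided. Precision is limited by having 4 arrays a group, which the labels give as biological replicates.

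The members and lists were chosen with earlier results of these data known. Named were all NR4A probe sets, up to 4 genes a list (called first, then by p), and the 5 genes most like each member by Pearson correlation, with further genes of the cAMP list added after their values were seen. Loci beside the members and the promoter motifs were added after seeing the data. Listed genes without a single-symbol probe set are not analysed here. Replicate numbers are shared between groups, but deviations of same-numbered hearts correlated at -0.18 to 0.06, so they were not treated as pairs. Figures were drawn with matplotlib 3.10.9.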

Additional observations from a re-analysis of the deposited data

How the results depend on the processing

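Nr4a3 on 1369067_at kept its direction and its call under all 19 alternatives, the mean of its probe sets among them. Others were an offset of 16, leaving out dim probe sets, centring on medians, another quantile normalization, trended and robust eBayes and array weights. The replicate block, the hybridization covariate and the loss of each heart were also tried. Its call was weakest with the hybridization covariate (adjusted p = 0.0471), where 1393389_at did not pass (adjusted p = 0.0653). The Nr4a3 difference on 1369067_at was -2.97 to -2.57 without single hearts, and the smallest for the gene was -1.70 when its 3 probe sets were averaged. Nr4a1 (-0.56 to -0.23) and Nr4a2 on 1369007_at (0.12 to 0.35) kept their direction and stayed uncalled under 19 alternatives each. The 0.12 of Nr4a2 came from the mean of its probe sets. The differences in response between genes kept direction and side under the 2 alternatives with a test. With the probe sets of each gene averaged they were smaller, at 1.31 for Nr4a1 minus Nr4a3 and 1.81 for Nr4a2 minus Nr4a3. Without single hearts they were 2.13 to 2.59 for Nr4a1 minus Nr4a3, 2.93 to 3.23 for Nr4a2 minus Nr4a3 and -0.80 to -0.54 for Nr4a1 minus Nr4a2.

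With the replicate block, Nr4a3 stood at -2.78 (adjusted p = 0.00113) and 0 of the other nuclear receptors were called lower, against 1 without it; over all genes the block gave 245 lower and 60 higher calls, against 308 and 114. The calls of Tie1 (adjusted p = 0.0732), Gpd2 (0.0604) and Nr3c2 (0.0775) were lost with the block. With the hybridization control covariate the genes called lower were 0 other nuclear receptors, 0 regulators of NR4A transcription, 4 cAMP-responsive early genes and 0 metabolic genes, and over all genes 57 lower and 3 higher. With the probe sets of each gene averaged, 2 other nuclear receptors were called lower. Without single hearts, genes called lower numbered 0 to 1 other nuclear receptors, 1 to 2 regulators of NR4A transcription, 0 to 1 partners and 13 to 16 cAMP-responsive early genes, and 0 to 1 metabolic genes were called higher. The cause was not tested. Signals of the dim probe sets 1369217_at and 1387410_at carry no detection call, which limits what they show.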
